A study of Mus musculus with 8 samples.

Results

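The replication-dependent histone genes supply the bulk histones that package DNA as it is copied. They were examined here in anterior neural progenitor cells derived from mouse embryonic stem cells. Members were taken from the deposited expression table by symbol (Hist1h, Hist2h, Hist3h or Hist4h), which gave 55 of 46406 table entries. Of these, 6 were genes of the linker histone H1, 19 of H2A, 18 of H2B and 12 of H3. The 13 H4 genes share a joint symbol in the table that begins with the name of another locus, so the symbol does not pick them. They were found by Ensembl identifier and are described beside the members, outside every count of members. The GENCODE M21 annotation places 44 members on chromosome 13, 9 on chromosome 3 and 2 on chromosome 11.

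Poly(A) RNA was sequenced in 8 libraries. The null cells came from E14 mouse embryonic stem cells in which CRISPR-Cas9 and paired guides had removed the poised enhancer PE Lhx5(-109). They comprised clone 1 and clone 2, each a clonal line with 2 libraries. The 4 WT libraries came from E14 cells without the deletion and without a clone number, so the deletion and the derivation of a clone cannot be told apart. All 3 lines were differentiated alike in N2B27, a medium free of serum. The growth factor bFgf was present for the initial days, and Xav939, which blocks WNT signalling, was added afterwards. Nothing in the labels ties the libraries of a line to separate cultures, so p-values measure the spread between libraries, which may be technical. Lhx5, the gene beside the enhancer, stood at 1.24 and 0.854 FPKM in clone 1 and at 1.90 and 1.26 FPKM in clone 2, against 15.0 to 17.5 FPKM in WT. FPKM is a fragment count scaled to gene length and library size. It summed to 518491 to 528726 per library, and the values of genes with very few reads placed the depths within 0.956 to 1.03 times that of WT replicate 1. The progenitor markers Sox2 and Nes were present in every library, at 119 FPKM or more and 14.8 FPKM or more. The summed levels of 5 endoderm and 5 mesoderm markers were at most 0.992 and 1.08 FPKM.

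Replication-dependent histone messages are the only known animal messenger RNAs that normally end without a poly(A) tail. Their 3′ end is a short stem-loop, bound by the stem-loop binding protein Slbp and cut just downstream with the help of the U7 small nuclear RNA. The genes are switched on as cells enter S phase, when nucleosomes must be assembled on new DNA, and the messages are destroyed when replication ends. Selection for poly(A) therefore captures most of these messages poorly, and FPKM values do not separate messages with a tail from those without one.

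The stem-loop is shown first because it defines the family. A search of the GENCODE M21 transcripts (GRCm38) for the 16-base histone stem-loop consensus found it in 33 of 55 members and in 11 of 13 H4 genes. It was found in 7 of 55273 other genes, or 0.0127%. In the other 22 members no match lay in the annotated transcript. The sequences below are the loop in capitals with 5 bases on each side, 5′ to 3′ on the coding strand.
Hist1h1c (H1), chr13:23739512-23739527, plus strand: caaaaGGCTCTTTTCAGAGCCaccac
Hist1h2ad (H2A), chr13:23574895-23574910, plus strand: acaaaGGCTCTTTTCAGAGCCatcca
Hist2h2ac (H2A), chr3:96220418-96220433, minus strand: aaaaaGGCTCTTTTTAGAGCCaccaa
Hist1h2bk (H2B), chr13:22036300-22036315, plus strand: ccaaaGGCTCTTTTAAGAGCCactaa
Hist3h2ba (H2B), chr11:58949349-58949364, plus strand: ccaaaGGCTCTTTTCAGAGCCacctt
Hist1h3c (H3), chr13:23745047-23745062, minus strand: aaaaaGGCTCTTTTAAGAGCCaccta
Hist1h4d (H4), chr13:23581950-23581965, plus strand: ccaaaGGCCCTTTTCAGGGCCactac
Hist1h4b (H4), chr13:23757366-23757381, plus strand: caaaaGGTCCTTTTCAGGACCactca

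Among the members, 26 loops read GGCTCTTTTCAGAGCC, 6 read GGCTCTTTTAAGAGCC and Hist2h2ac alone read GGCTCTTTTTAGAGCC. All 11 H4 loops differed from these in the stem. They read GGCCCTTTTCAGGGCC in 7 genes, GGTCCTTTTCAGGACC in 2 and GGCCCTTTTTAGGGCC in 2. The loop separated H4 from the other types and did not separate H1, H2A, H2B and H3. A poly(A) signal (AATAAA) lay in the last 50 bases of an annotated transcript in 11 members, among them Hist3h2ba and Hist3h2a, and in 4 H4 genes.

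The promoters also set H4 apart. RefSeq windows (GRCm38.p6) of 300 bases, 250 before the start and 50 after it, matched 48 members and 12 H4 genes. Both strands were searched for CCAAT, the box bound by NF-Y, which reads ATTGG from the opposite strand. The octamer bound by Oct proteins was searched as ATTTGCAT, or ATGCAAAT from the opposite strand. The TATA box was searched as TATAAA, which on the opposite strand is TTTATA. These motifs share no letters with each other in the window shown here. CCAAT was present in 48 of 48 member windows and in 3 of 12 H4 windows, against 37.4% of the 32851 mouse promoters. The octamer was present in 7 of 17 H2A windows, in 6 of 15 H2B windows and in none of the 6 H1, 10 H3 and 12 H4 windows, against 1.74% of all promoters. TATAAA was present in 27 of 48 member windows and in 8 of 12 H4 windows, against 13.6%. Many histone genes lie head to head, and the windows of 18 members overlapped that of another histone gene, so these counts are not of independent sequences. The window of Hist1h2bk is printed because its level separated the clones with the smallest adjusted p among the members. The capitals mark CCAAT, octamer and TATAAA matches on either strand. It overlaps the window of Hist1h2ah on the opposite strand, chr13:22035594-22035893.
Hist1h2bk promoter, chr13:22035571-22035870, plus strand: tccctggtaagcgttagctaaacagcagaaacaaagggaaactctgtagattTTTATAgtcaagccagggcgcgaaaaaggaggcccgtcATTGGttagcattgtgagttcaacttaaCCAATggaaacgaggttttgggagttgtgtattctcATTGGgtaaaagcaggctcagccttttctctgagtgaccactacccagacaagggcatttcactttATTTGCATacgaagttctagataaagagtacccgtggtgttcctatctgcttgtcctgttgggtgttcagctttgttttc

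In every library the members were at low levels. Their FPKM summed to 111.8 and 227.5 in clone 1, to 77.0 and 62.8 in clone 2 and to 85.0, 94.0, 91.5 and 97.7 in WT. These sums were 0.0120% to 0.0432% of a library's FPKM. Clone 1 replicate 2 was the highest library and both clone 2 libraries were the lowest, while clone 1 replicate 1 lay above the WT range. By comparison, the polyadenylated variant histone H2afz alone stood at 569 and 612 FPKM in clone 1, at 700.3 and 721 FPKM in clone 2 and at 656 to 706 FPKM in WT. A total of 36 members had a mean of at least 1 FPKM over the 8 libraries and entered the tests: 2 H1, 14 H2A, 12 H2B and 8 H3 genes. Without clone 1 replicate 2 the mean reached 1 FPKM for 29 members, so 7 of the 36 entered through that library. Of the 19 untested members, the testis gene Hist1h2aa was listed at 0 in all 8 libraries. Among the H4 genes 10 were tested, and 6 without clone 1 replicate 2.

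The copies are hard to tell apart. Of the 55 members, 31 had under 50% of their 50-base stretches unique in the annotated transcripts. The median unique share was 98.8% in H1, 32.4% in H2A, 53.1% in H2B, 38.0% in H3 and 60.5% in H4. A mean of at most 1 read in WT was listed in the authors' deposited table for 7 tested members, 5 of them H2A. An example is Hist1h2ad, with 0.220 mean reads in WT in the authors' deposited table and 2.97 to 3.52 FPKM in the WT libraries. Values of single H2A, H2B and H3 genes with near-identical copies are therefore uncertain, and sums by type are given with them. Counts of called members take in such copies and are not counts of independent genes. Hist1h2al is annotated as a processed pseudogene, and the annotated transcript of Hist1h2be overlaps that of Hist1h1e on the same strand.

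**Figure D1:**
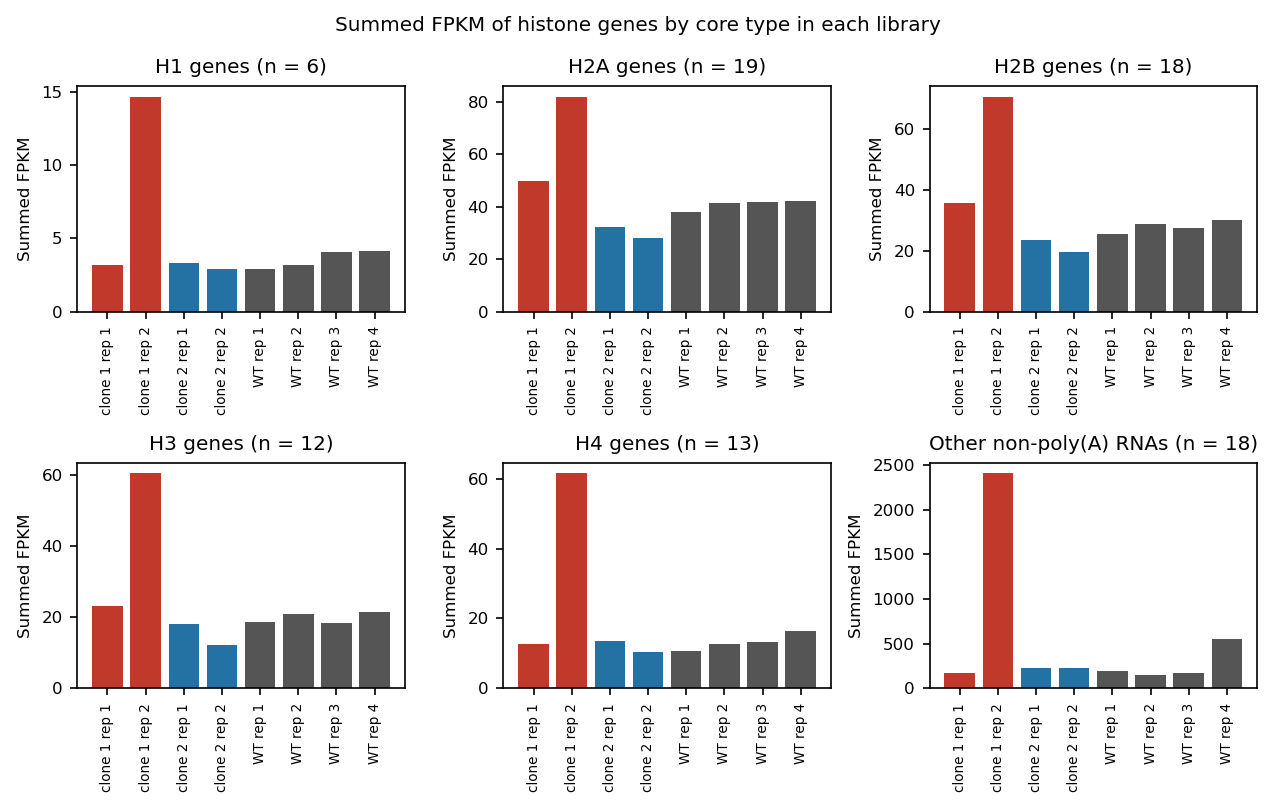
Summed FPKM (vertical axis) of the genes of each core type and of 18 other RNAs without a poly(A) tail, one bar for each library of clone 1 (red), clone 2 (blue) and WT (grey). H1 and H4 were high in clone 1 replicate 2 only, as were the other tail-less RNAs apart from a smaller rise in WT replicate 4, while H2A, H2B and H3 were also higher in clone 1 replicate 1 than in both clone 2 libraries.

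Clone 1 replicate 2 exceeded clone 1 replicate 1 for 35 of the 36 tested members, against 28.8% of all genes compared. It was at least 2-fold higher for 18 of the 36, against 1.24% of all genes, with a median of 2.06-fold. The 7 members that reached the mean of 1 FPKM through clone 1 replicate 2 had to be high there, and all 7 are among the 18. Of the 29 members with a mean of at least 1 FPKM over the other 7 libraries, 28 were higher in clone 1 replicate 2, against 28.6% of all genes chosen so, and 11 were at least 2-fold higher, against 1.04%. Their median ratio was 1.66-fold, or 0.73 on the log2 scale, against -0.09 for all genes. With 1 library on each side there is no test of this ratio. Between the clone 2 libraries the median log2 ratio of the 36 members (replicate 2 over replicate 1) was -0.23, and WT replicate 4 over WT replicate 1, the widest of the WT pairs, gave 0.15.

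The core types differed in the size of that step. Summed by type, clone 1 replicate 2 was 1.65-fold above replicate 1 for H2A, 1.97-fold for H2B, 2.60-fold for H3, 4.62-fold for H1 and 4.89-fold for H4. These sums take in every gene of a type, whatever its level. Among genes with a mean of at least 1 FPKM over the other 7 libraries, the median ratio was 3.72-fold over 6 H4 genes. It was 2.34-fold over 7 H3 genes, 2.30-fold over 9 H2B genes and 1.49-fold over 12 H2A genes. The only H1 gene chosen so, Hist1h1c, had a ratio of 2.24-fold. All 6 of these H4 genes were at least 2-fold higher, and 0 of the 12 H2A genes. Hist1h1e, a linker histone gene, had 0.686 and 5.24 FPKM in clone 1, 0.514 and 0.766 FPKM in clone 2 and 0.476 to 1.05 FPKM in WT. Hist1h1d, a linker histone gene just under the mean of 1 FPKM and so not tested, had 0.474 and 3.42 FPKM in clone 1, 0.711 and 0.468 FPKM in clone 2 and 0.562 to 1.00 FPKM in WT. Both genes were within or close to the WT range in each null library except clone 1 replicate 2. Hist1h1c, whose annotated transcript carries a poly(A) signal, had the highest H1 level averaged over the 8 libraries, although Hist1h1e and Hist1h1d exceeded it in clone 1 replicate 2, with 1.35 and 3.02 FPKM in clone 1, 1.40 and 1.28 FPKM in clone 2 and 1.12 to 1.45 FPKM in WT.

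Among the tested genes the highest ratios belonged to Hist2h3b and to 3 H4 genes, of which Hist2h3b, Hist1h4a and Hist1h4f were tested only through clone 1 replicate 2. Hist2h3b, an H3 gene of chromosome 3 none of whose 50-base stretches is unique, had 0.273 and 4.72 FPKM in clone 1, 0.589 and 0.353 FPKM in clone 2 and 0.397 to 1.01 FPKM in WT. Its ratio between the clone 1 libraries was 17.3-fold. Hist1h4a had 0.413 and 5.58 FPKM, Hist1h4f 0.585 and 6.26 FPKM, and Hist1h4k 0.748 and 7.74 FPKM in clone 1 replicates 1 and 2. In the other libraries these 3 H4 genes stayed between 0.0386 and 2.12 FPKM, so clone 1 replicate 2 did not overlap any of them. Hist1h4d, the highest H4 gene on average, had 2.71 and 9.39 FPKM in clone 1, 1.69 and 0.939 FPKM in clone 2 and 1.53 to 3.14 FPKM in WT. Hist1h4b followed, with 1.96 and 6.55 FPKM in clone 1, 2.31 and 1.03 FPKM in clone 2 and 1.27 to 1.89 FPKM in WT.

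At the low end, Hist3h2a had 2.01 and 1.68 FPKM in clone 1, a ratio of 0.835-fold, and was the only tested member lower in replicate 2. Hist1h2bj, Hist1h2an and Hist3h2ba followed with ratios of 1.09, 1.29 and 1.32. Hist3h2a and Hist3h2ba are neighbours on chromosome 11, and both carry a poly(A) signal near their annotated end. Among members with a mean of at least 1 FPKM over the other 7 libraries, the 5 with such a signal had a median ratio of 1.33-fold and the 24 without it 1.66-fold, values given without a test since the genes are few and share sequence. Among the H4 genes Hist1h4a carries the signal and had the highest H4 ratio, 13.5-fold.

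**Figure D2:**
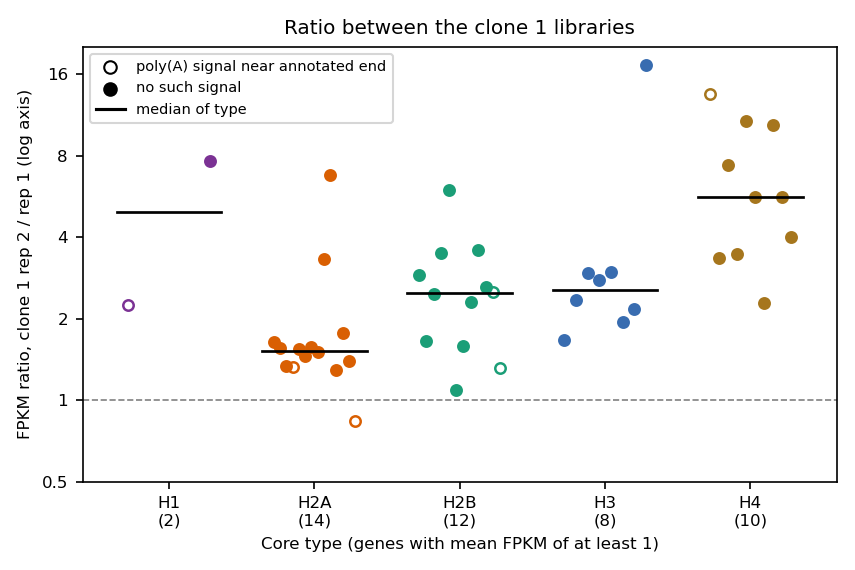
Ratio of FPKM in clone 1 replicate 2 to clone 1 replicate 1 (vertical log axis) for the genes of each core type with a mean of at least 1 FPKM. Each point is 1 gene, open where an AATAAA lies near the annotated end, and the lines are medians. The H2A genes lie lowest, with a median of 1.53-fold, and H4 genes spread from 2.29-fold to 13.5-fold. Of the plotted genes, 7 members and some H4 genes reached that mean only through clone 1 replicate 2. With the mean over the other 7 libraries, the H2A median was 1.49-fold and 6 H4 genes spread from 2.29-fold to 10.35-fold.

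The summed level of other RNAs without a poly(A) tail was raised in the same library. Over 18 listed RNAs the sum was 170 and 2408 FPKM in clone 1, 226 and 224 FPKM in clone 2 and 195, 151, 175 and 546 FPKM in WT. Rn7sk, the RNA of the 7SK complex that restrains transcription elongation, had 8.05 and 250.2 FPKM in clone 1, 17.5 and 12.7 FPKM in clone 2 and 8.40 to 28.4 FPKM in WT. Rpph1, the RNA of ribonuclease P, had 3.02 and 371 FPKM in clone 1, 10.4 and 3.29 FPKM in clone 2 and 3.02 to 22.8 FPKM in WT. For Rn7sk and Rpph1 clone 1 replicate 2 stood far outside all others, WT replicate 4 was the next highest, and clone 1 replicate 1 was at or below the lowest WT library. Of the 16 tested, 0 passed the limma test in any comparison of lines, and an unadjusted p under 0.05 was reached by 1 for null against WT, by 1 for clone 1 against WT and by 0 in both clone 2 comparisons. The changes of the 16 in clone 1 against WT were positive for 13 and negative for 3. Without clone 1 replicate 2 only 13 of the listed RNAs reached the mean of 1 FPKM, so the filter has a part in these counts. Rnu7 (the U7 RNA) was listed at 0 in every library. Their part in the histone values was not tested. Clone 1 replicate 1, where Rn7sk, Rpph1 and Rmrp were as low as in WT, is therefore set out separately in what follows.

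**Figure D3:**
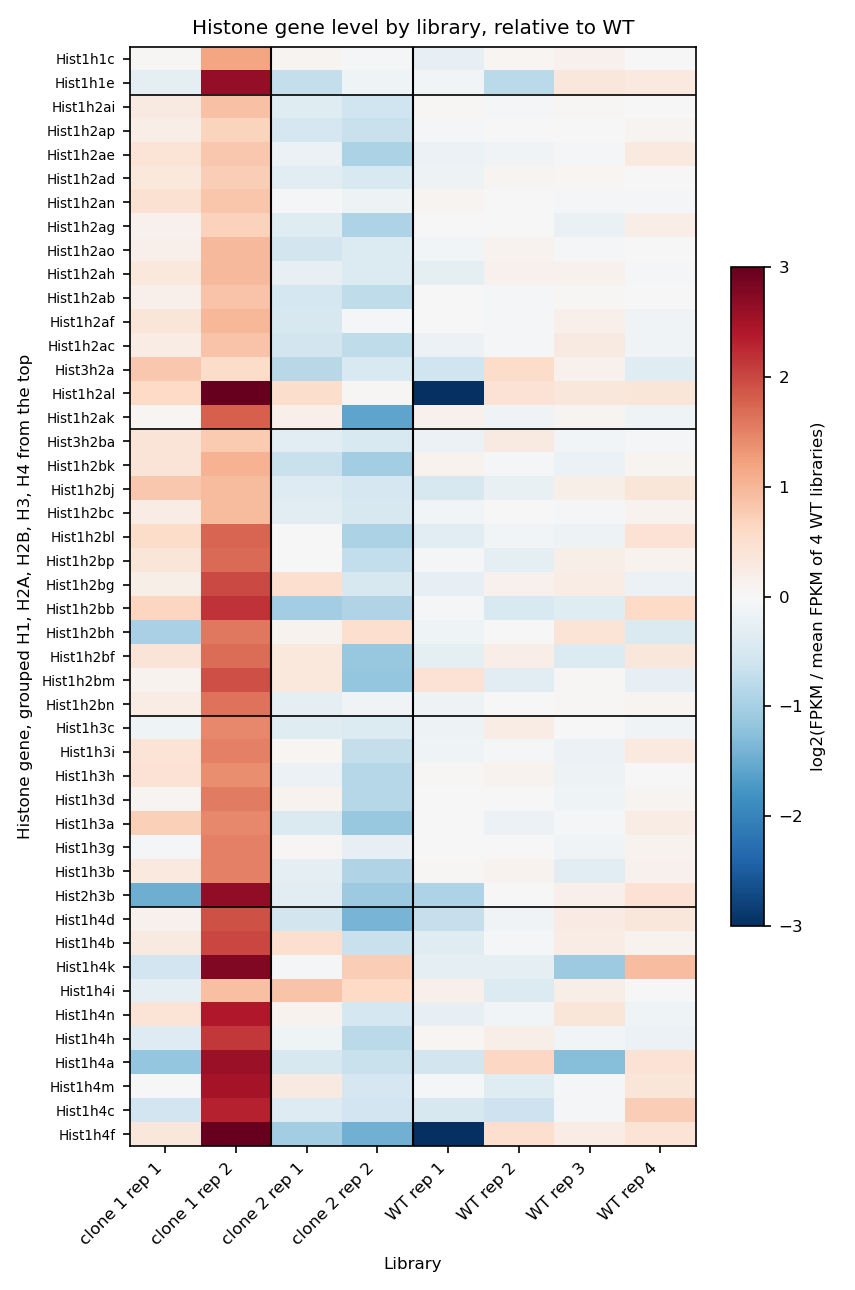
Level of each tested histone gene (rows, grouped by core type) in each library (columns) as log2 of FPKM over the mean of the 4 WT libraries, with colours clipped at -3 and 3. Clone 1 replicate 2 is red in every row, clone 1 replicate 1 is pale red over most H2A, H2B and H3 rows, and clone 2 is mostly pale blue there.

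In clone 1 replicate 1 the types parted again. The H2A sum was 1.22-fold the WT mean, the H2B sum 1.28-fold and the H3 sum 1.17-fold, whereas the H1 sum was 0.888-fold and the H4 sum 0.953-fold. The H2A genes summed to 49.6 FPKM and the H2B genes to 35.7 FPKM in that library, above all 4 WT libraries, which held 38.0 to 42.2 FPKM of H2A and 25.3 to 30.0 FPKM of H2B. Clone 2 lay on the other side, with 32.3 and 28.2 FPKM of H2A and 23.4 and 19.5 FPKM of H2B, below all 4 WT libraries. The H1 sum, 3.30 and 2.90 FPKM in clone 2 against 2.93 to 4.15 FPKM in WT, and the H4 sum, 13.6 and 10.4 FPKM in clone 2 against 10.8 to 16.2 FPKM in WT, overlapped WT or lay just below it.

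Null and WT libraries did not separate. With limma on log2(FPKM + 1), a test of each gene that borrows its variance across genes, 0 of 36 members passed an adjusted p of 0.05 (Benjamini-Hochberg over 14521 genes), and 0 reached an unadjusted p under 0.05. In that comparison 0.0551% of all genes were called. The median log2 fold change of the members was 0.19, with 31 of 36 positive, against -0.02 for all genes. Without clone 1 replicate 2 the median was -0.12, with 4 of 29 positive. In that limma fit 0 members were called, against 0.0276% of all genes, and 0 reached an unadjusted p under 0.05. In the authors' deposited table, whose p-values have no stated test, 4 of 46 members with reads had a p under 0.05, against 4.79% of genes with reads. After Benjamini-Hochberg adjustment of those p-values 3 members, named here after their values were seen (Hist1h1b, Hist1h1e and Hist1h2bb), remained, against 0.782% of genes. All 3 are listed there with a p of exactly 0, at 3.62 to 16.0 mean reads in WT. In the authors' deposited table Hist1h1e had 39.0 mean reads in null and 16.0 in WT.

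Against WT, clone 1 was higher for 8 of 36 members and lower for 0, where 4.16% of all genes were called higher. The 8 were 4 H2A, 3 H2B and 1 H3 gene. The median over the 36 was 0.55, against -0.05 for all genes. Both clone 1 libraries lay above all WT libraries for 23 of the 36, against 12.1% of all genes. Among the 23 are Hist1h2al, Hist1h2bf and Hist1h2bn, which were tested only through clone 1 replicate 2, so the filter has a part in this count. Hist1h2an, an H2A gene, had 4.26 and 5.51 FPKM in clone 1 and 3.25, 3.07, 3.04 and 3.01 FPKM in WT, without overlap (log2 fold change 0.52, SE 0.096, limma adjusted p 0.012). The unique share of Hist1h2an was only 14.2%. The authors' deposited table lists it at 0.25 mean reads in WT and 1.32 in null. Its separation is therefore uncertain as that of a single gene, since near-identical copies may share its reads. Hist1h3a, an H3 gene, had 3.01 and 5.02 FPKM in clone 1 and 1.82, 1.64, 1.77 and 2.16 FPKM in WT (0.79, SE 0.17, limma adjusted p 0.019). Clone 1 was likewise separate from WT for Hist1h2bj, an H2B gene with 4.59 and 5.02 FPKM in clone 1 against 1.87 to 3.37 FPKM in WT (0.71, SE 0.16, limma adjusted p 0.022). The other 5 genes were Hist3h2ba, Hist1h2bk, Hist1h2ad, Hist1h2ai and Hist1h2af, with changes of 0.42 to 0.59. As each library was left out in turn, the calls of Hist1h2bk, Hist1h2ai and Hist1h2af were lost in 5 of 8 fits. Those of Hist1h2ad and Hist3h2ba were lost in 4, those of Hist1h3a and Hist1h2bj in 2 and that of Hist1h2an in 1. Without clone 1 replicate 2, which leaves 1 clone 1 library assumed to vary like the others, 0 of 29 members passed and 6 had an unadjusted p under 0.05. The median was then 0.23 and 26 of 29 were positive. In that fit 3.03% of all genes were called. When clone 1 replicate 1 was left out instead, the member median was 1.01. Clone 1 replicate 2 was then the only clone 1 library and also entered the filter, which takes in members high only there.

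Set against the same 4 WT libraries, clone 2 was lower for 2 of 36 members, Hist1h2ap and Hist1h2bk, and higher for 0, where 6.96% of all genes were called lower. That share is near the background. Hist1h2ap, an H2A gene, had 3.44 and 3.08 FPKM in clone 2 and 4.71, 4.84, 4.85 and 5.19 FPKM in WT (log2 fold change -0.47, SE 0.11, limma adjusted p 0.029). Hist1h2bk, an H2B gene, had 2.13 and 1.64 FPKM in clone 2 and 3.64, 3.25, 3.01 and 3.60 FPKM in WT (-0.60, SE 0.15, limma adjusted p 0.035). The groups did not overlap for either gene, and 32 of the 36 changes were negative with a median of -0.26. Both clone 2 libraries lay below all WT libraries for 16 of the 36, against 22.7% of all genes. When each library was left out in turn, the call was lost in 6 of 8 fits for Hist1h2bk and in 5 for Hist1h2ap. Fitted without clone 1 replicate 2, which enters through the shared spread, 6 of 29 members were lower, 5 of them H2A, where 7.93% of all genes were called lower.

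The clones differed from each other in more members. Clone 2 was lower than clone 1 for 23 of 36 members and higher for 0, where 15.0% of all genes were called lower and 24.9% higher. All 36 changes were negative, with a median of -0.84, against 0.05 for all genes. Both clone 1 libraries lay above both clone 2 libraries for 27 of the 36, against 27.8% of all genes. These 27 also take in Hist1h2al, Hist1h2bf and Hist1h2bn, tested only through clone 1 replicate 2. Clone 1 replicate 1 alone lay above both clone 2 libraries for 27 of the 36, against 41.5% of all genes. By type, 12 of 14 H2A, 7 of 12 H2B, 4 of 8 H3 and 0 of 2 H1 genes were lower. Many of these copies share most of their sequence, above all in H2A, so the calls are not of independent genes. None of the 10 H4 genes passed, with 2 at an unadjusted p under 0.05 and a median of -0.87. Over the 6 H4 genes still tested without clone 1 replicate 2, the median was -0.11. Without clone 1 replicate 2, 15 of 29 members were lower and 0 higher, where 14.7% of all genes were called lower. The median was then -0.545 and 28 of 29 changes were negative. In that fit 8 of 12 H2A, 5 of 9 H2B, 2 of 7 H3 and 0 of 1 H1 genes passed.

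Hist1h2bk had 2.13 and 1.64 FPKM in clone 2 and 4.40 and 6.996 FPKM in clone 1 (log2 fold change -1.19, SE 0.18, limma adjusted p 0.0014). The WT libraries lay between the clones, and the change was -0.91 without clone 1 replicate 2 (limma adjusted p 0.0069). Hist1h3a had 1.36 and 0.847 FPKM in clone 2 and 3.01 and 5.02 FPKM in clone 1, again with WT in between (-1.24, SE 0.20, limma adjusted p 0.0018; -0.94 without clone 1 replicate 2). Hist1h2ap had 3.44 and 3.08 FPKM in clone 2 and 5.60 and 7.83 FPKM in clone 1 (-0.84, SE 0.13, limma adjusted p 0.0017; -0.63 without clone 1 replicate 2). These 3 genes represent H2B, H3 and H2A and showed the same order of clone 2, WT and clone 1.

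Hist1h2ai, the highest H2A gene on average, had 3.72 and 3.18 FPKM in clone 2 and 5.83 and 8.80 FPKM in clone 1, with 4.64 to 4.92 FPKM in WT (-0.88, limma adjusted p 0.0026). Hist3h2ba, the highest member of all, had 5.63 and 5.12 FPKM in clone 2 and 9.26 and 12.2 FPKM in clone 1, with 6.18 to 8.53 FPKM in WT (-0.87, limma adjusted p 0.0029). Since 77.9% of its 50-base stretches are unique, Hist3h2ba is also among the better resolved members. Hist3h2a, the neighbour that was lower in clone 1 replicate 2 than in replicate 1, had 2.01 and 1.68 FPKM in clone 1. It had 0.651 and 0.845 FPKM in clone 2 and 0.763 to 1.68 FPKM in WT. The change between the clones was -0.70 (limma adjusted p 0.019), and -0.78 without clone 1 replicate 2. Its call was lost in 4 of the 8 fits that each left out 1 library, that one among them.

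The H3 genes with the highest levels did not move alike. Hist1h3h had 2.88 and 1.79 FPKM in clone 2 and 4.42 and 8.63 FPKM in clone 1 (-1.13, limma adjusted p 0.011; -0.72 without clone 1 replicate 2, adjusted p 0.029). Hist1h3i had 3.33 and 1.97 FPKM in clone 2 and 4.23 and 9.19 FPKM in clone 1 (-1.03, limma adjusted p 0.045), and its call was lost without clone 1 replicate 2 (-0.54, limma adjusted p 0.13). Hist1h3c, the highest H3 gene on average, had 2.94 and 2.86 FPKM in clone 2 and 3.46 and 10.2 FPKM in clone 1, and its change of -0.86 did not pass (limma adjusted p 0.13). In WT it had 3.41 to 4.42 FPKM, a range that holds clone 1 replicate 1. Among the H4 genes, chosen for mention after its values were seen, Hist1h4i was the only tested one with a positive change, at 2.68 and 2.26 FPKM in clone 2 and 1.22 and 2.78 FPKM in clone 1. That change passed only without clone 1 replicate 2 (0.64, limma adjusted p 0.028).

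**Figure D4:**
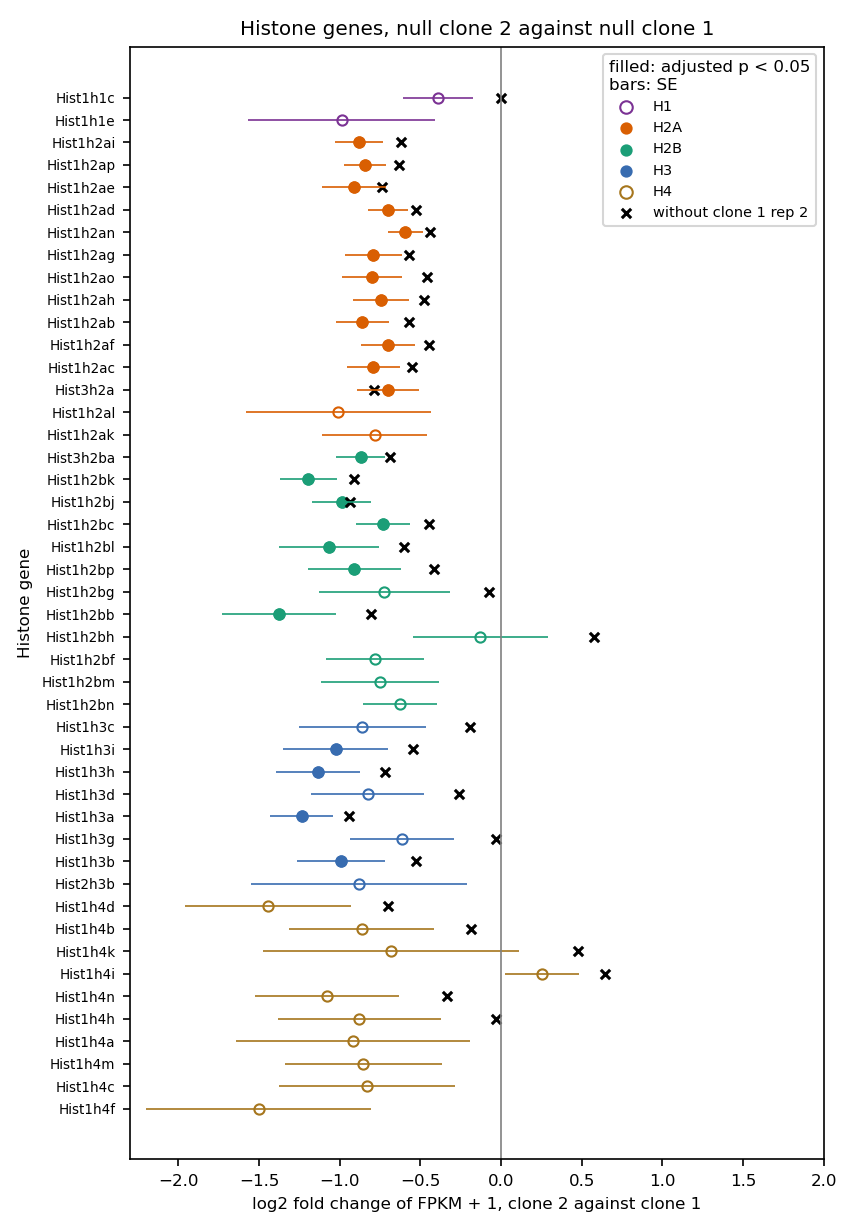
Log2 fold change of clone 2 against clone 1 on the log2(FPKM + 1) scale (horizontal axis) for each tested histone gene (rows), as circles with SE bars, filled where the adjusted p was under 0.05. Crosses give the value without clone 1 replicate 2, where the gene was still tested. H2A genes stay below 0 in both, and the H1 gene and most H4 genes move towards 0 without that library, while Hist1h4i moves away from it.

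Genes that make, process and carry histones were examined as listed groups. The 20 S phase replication genes found in the table ran opposite to the members between the clones: 18 were higher in clone 2 than in clone 1 and 0 lower, with a median of 0.29, where 24.9% of all genes were called higher. Against WT, 18 of the 20 were lower in clone 1, where 11.4% of all genes were called lower, and 3 were higher in clone 2, where 7.06% were called higher. With FPKM rescaled by median ratio 14 of the 20 were lower in clone 1, and over all genes 6.60% were called higher and 6.75% lower. Between the clones 16 of the 20 were then higher in clone 2, with 20.4% of all genes called higher and 20.2% lower. Still 15 of 20 were higher in clone 2 than in clone 1 without clone 1 replicate 2, where 17.8% of all genes were called higher. Tyms, which makes thymidylate for DNA, had 95.9 and 107 FPKM in clone 2 and 55.4 and 58.4 FPKM in clone 1, with 71.9 to 80.4 FPKM in WT (0.82, limma adjusted p 0.00023). Pcna, the sliding clamp of the replication fork, had 227 and 234 FPKM in clone 2 and 178 and 181 FPKM in clone 1, with 214 to 227 FPKM in WT (0.36, limma adjusted p 0.00047). Fen1, a flap endonuclease, and Rrm2, a subunit of ribonucleotide reductase, changed by 0.57 and 0.51.

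Among the 15 genes of histone message 3′ end processing, 6 were higher and 1 lower in clone 2 than in clone 1, and with rescaled FPKM 4 were higher and 4 lower. The list's 46.7% called in either direction is near the 39.9% of all genes. Slbp had 91.5 and 95.7 FPKM in clone 2 and 61.8 and 65.9 FPKM in clone 1, with 79.6 to 86.4 FPKM in WT (0.54, limma adjusted p 0.00038). It was lower in clone 1 than in WT as well (-0.40, limma adjusted p 0.0035). Casp8ap2, which is needed for histone transcription and processing, had 27.5 and 23.7 FPKM in clone 2 and 17.4 and 14.0 FPKM in clone 1, with 21.9 to 25.6 FPKM in WT (0.68, limma adjusted p 0.0023). Cstf2 and Cpsf2, subunits of cleavage complexes, changed by 0.45 and 0.26.

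Of 13 genes of histone gene transcription, 4 (30.8%) were higher in clone 2 than in clone 1, near the 24.9% of all genes. The counts were 2 higher and 1 lower without clone 1 replicate 2. The 4 were Nfyc (0.58), a subunit of the factor that binds CCAAT, Ccne1 (0.34), a cyclin of S phase entry, and E2f3 (0.36) and E2f2 (0.24), activators of S phase genes. Npat, the coactivator of the histone clusters, had 13.7 and 13.1 FPKM in clone 2 and 14.1 and 11.7 FPKM in clone 1 (0.06, limma adjusted p 0.61). Of 16 histone chaperones, 13 were higher in clone 2 and 0 lower, where 24.9% of all genes were called higher and 15.0% lower. Their median change was 0.23, and 0.18 without clone 1 replicate 2. Mcm2 is on this list and on the S phase list. The chaperones were led by Rbbp7 (0.49), Dnajc9 (0.39), Chaf1a (0.40) and Asf1b (0.41). Chaf1a, a subunit of the factor that deposits histones on new DNA, had 44.4 and 47.8 FPKM in clone 2 and 36.2 and 33.0 FPKM in clone 1, with 40.7 to 44.4 FPKM in WT.

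The polyadenylated variant histones were split, with 6 of 12 tested higher in clone 2 than in clone 1 and 4 lower. For this and the marker counts below, 24.9% of all genes were called higher in clone 2 and 15.0% lower. H3f3b, a gene of the replacement histone H3.3, had 313 and 316 FPKM in clone 2 and 242 and 241 FPKM in clone 1 (0.38, limma adjusted p 0.00038). The macroH2A genes H2afy2 and H2afy changed by 0.67 and 0.37. H2afj, an H2A variant, went the other way, with 23.6 and 23.6 FPKM in clone 2 and 43.3 and 40.8 FPKM in clone 1, and 26.0 to 35.2 FPKM in WT (-0.81, limma adjusted p 0.0013). Markers of other cell states differed between the clones too. The 9 listed pluripotency and epiblast markers summed to 84.8 and 74.5 FPKM in clone 2 and to 194 and 174 FPKM in clone 1, with 99.96 to 127 FPKM in WT, and all 6 tested were lower in clone 2 than in clone 1. The 5 neural crest markers summed to 7.13 and 5.72 FPKM in clone 2 and to 14.1 and 10.6 FPKM in clone 1, with 6.99 to 9.73 FPKM in WT, and the 1 tested, Ets1, was lower in clone 2 than in clone 1 (-1.09, limma adjusted p 0.0067). Of 9 neural progenitor markers 5 were higher and 1 lower in clone 2, and their sums were 348 and 383 FPKM in clone 2 and 332 and 301 FPKM in clone 1. Of 5 tested neuron markers 0 were higher and 2 lower. The 40% called in either direction is near the 39.9% of all genes. Sums over the neuron list were 59.7 and 59.0 FPKM in clone 2 and 71.6 and 62.9 FPKM in clone 1. Whether cell state, or the share of cells in S phase, had a part in the histone levels was not tested. In bulk RNA fewer cells of a kind and less RNA per cell cannot be told apart.

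**Figure D5:**
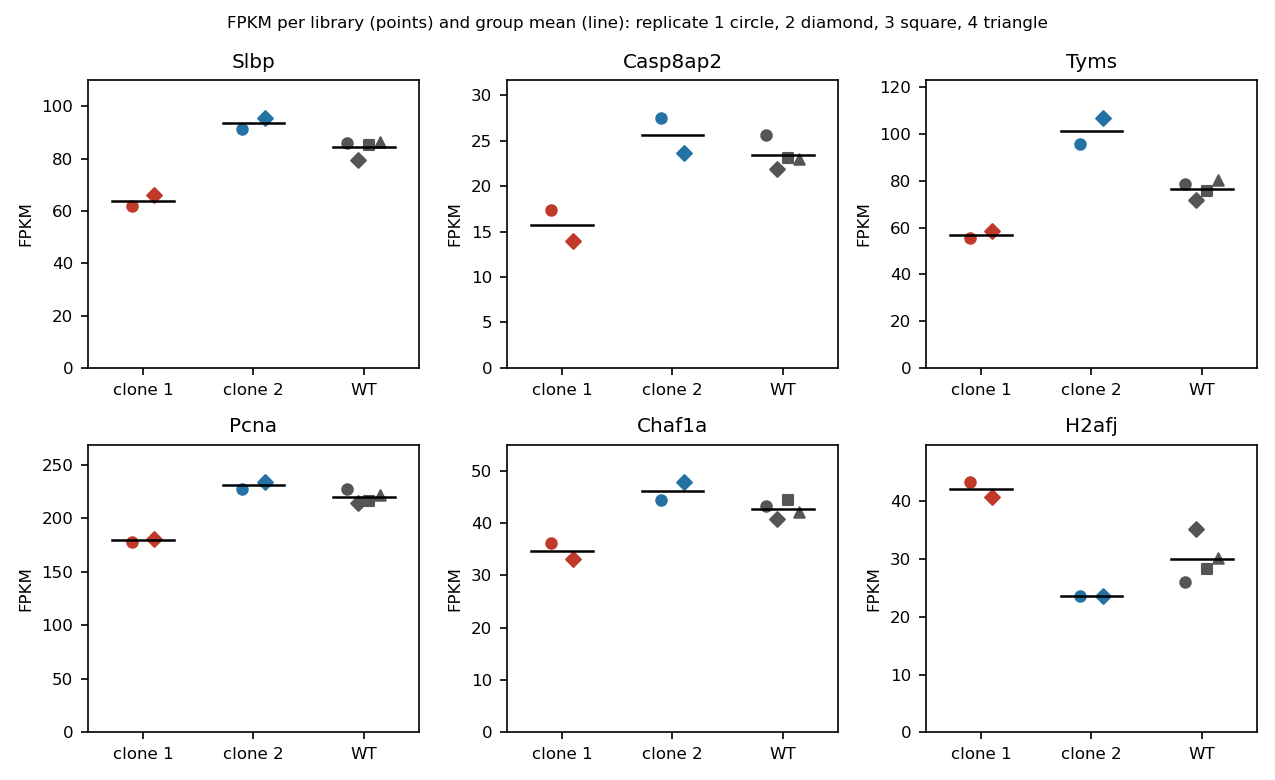
FPKM (vertical axis) of 6 listed genes in clone 1, clone 2 and WT, one point for each library, with group means as lines. Slbp, Casp8ap2, Tyms, Pcna and Chaf1a were lowest in both clone 1 libraries, and H2afj was highest there.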

How the data were processed

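Poly(A) RNA of 8 libraries had been prepared with TruSeq v2, per the labels' protocols. Per the file headers, the authors' table gives FPKM for each library. Per genotype, the authors added a mean of reads (a signal whose scaling is not stated), a fold of these means and a p-value. The submitters' processing notes list TopHat2, Cufflinks, DESeq2, SAMtools and FastQC, with mm10 and GRCm38 as builds and no roles. Strand and the handling of multiply matching reads were not given in the sources used. Null columns were assigned to clones by their headers.

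Members and gene lists were chosen with earlier results of these data known. limma 3.58.1 (R 4.3.3; trend, robust) was fitted to log2(FPKM + 1). It took in 14521 genes, each averaging 1 FPKM or more, and p-values were adjusted over all of them. A fold change on this scale understates the change of low genes. Null against WT used 2 groups, and the clone comparisons a fit of 3 groups. The fit was tested on simulated data. Named members were the 3 highest of each type, up to 8 called per comparison and the 4 highest and 4 lowest ratios between the clone 1 libraries. For other lists up to 4 called genes per comparison could be named, and only those of clone 2 against clone 1 are. Outside that rule, Rn7sk, Rpph1, Rmrp, Rnu7 and Npat were named although none was called in that comparison. H2afz, Sox2 and Nes were also named outside it. Of the member identifiers 53 of 55 matched GENCODE M21, and the others were matched by symbol. Sequences came from GENCODE M21 and RefSeq. Total depth per library is unknown, so no counting interval is given.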

Additional observations from a re-analysis of the deposited data

Results flagged for a closer look

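Clone 1 replicate 2 stood apart from the other null libraries. Its distance to the next null library was a large share of the range of the 4 null libraries, above the critical value for 4 samples, for the summed FPKM of H1 (0.966), of H4 (0.938) and of the other RNAs without a poly(A) tail (0.975). The same held for Hist1h1c (0.934), Hist1h1e (0.947), Hist1h1d (0.918) and Hist1h3c (0.918). It held as well for Hist2h3b (0.929), Hist1h4k (0.841), Hist1h4f (0.932) and Hist1h4a (0.953), which were named for their high ratio of clone 1 replicate 2 to replicate 1, so that their values restate that choice. Among WT libraries, WT replicate 4 stood apart for the summed other RNAs without a poly(A) tail (0.888). Leaving out the 8 genes named for that ratio, high or low, 8 of 44 groups of values stood apart in this way. This count has no chance rate to stand against. The genes and lists were chosen with earlier results known, and the 4 null libraries pool both clones. The groups are not independent, since they share libraries and the sums take in genes that are also listed singly.

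Several genes differed between the clones by a test of the difference itself, given as log2 fold change of clone 2 against clone 1. Lower in clone 2 were Hist1h2ad (-0.70), Hist1h2ae (-0.91), Hist1h2af (-0.70), Hist1h2ai (-0.88), Hist1h2an (-0.59), Hist1h2ap (-0.84), Hist1h2bj (-0.99), Hist1h2bk (-1.19), Hist1h3a (-1.24), Hist1h3h (-1.13), Hist1h3i (-1.03), Hist3h2a (-0.70), Hist3h2ba (-0.87) and the variant H2afj (-0.81). Higher in clone 2 were the variants H3f3b (0.38), H2afy2 (0.67) and H2afy (0.37), the processing genes Slbp (0.54), Cstf2 (0.45), Casp8ap2 (0.68) and Cpsf2 (0.26), and the transcription genes Nfyc (0.58), Ccne1 (0.34), E2f3 (0.36) and E2f2 (0.24). Also higher were the S phase genes Tyms (0.82), Fen1 (0.57), Pcna (0.36) and Rrm2 (0.51) and the chaperones Rbbp7 (0.49), Dnajc9 (0.39), Chaf1a (0.40) and Asf1b (0.41).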

How the results depend on the processing

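Leaving out each library in turn gave 0 to 33 members called for clone 1 against WT (8 with all libraries), 0 to 6 for clone 2 against WT (2) and 13 to 36 for clone 2 against clone 1 (23). For null against WT it gave 0 throughout. The lowest and highest counts came without clone 1 replicate 2 and replicate 1 for clone 1 against WT, and without clone 2 replicate 2 and clone 1 replicate 1 for the other clone comparisons. Without clone 1 replicate 1 the filter still took in clone 1 replicate 2, through which 7 of the 36 members had entered. The member medians then ranged from -0.12 to 0.33 for null against WT, where the value without clone 1 replicate 2 reversed the sign, from 0.23 to 1.01, from -0.38 to -0.17 and from -1.20 to -0.545 for the other 3. Without the filter on low values, which adds weakly measured genes, 2 members were called for clone 1 against WT and 0 for clone 2 against WT, where 5.32% and 4.10% of all genes were called. With the replicate number as a block the counts were 0, 0 and 16 for the clone comparisons, where the calls over all genes also fell, to 0.248%, 0.310% and 20.6%. The labels give these numbers no meaning, and same-numbered libraries of clone 2 and clone 1 deviated with a correlation of -0.09, so the block is not a pairing. A pseudocount of 0.1, rescaled FPKM and, for null against WT, correlated libraries of a line (correlation 0.656) left each count within 1.5 times. The median log2 ratio between the clone 1 libraries (1.04) was 0.50 over the 2 members with a mean of at least 5 FPKM, 0.80 with a pseudocount of 1 and 1.21 with rescaled FPKM. It was 0.73 with the filter on the other 7 libraries, an alternative chosen after seeing the data. No depth per library was available.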
